A study of Sus scrofa with 2 samples.

Results

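The gamma-delta-like thymocytes of pig thymus described here were chosen by 6 genes in the total thymocyte library. A member had at least 2 unique molecular identifiers (UMIs) of SOX13 and RHEX together, none of CD4 or CD8B, and at most 1 UMI of PTCRA and DNTT together. Of the 8026 total thymocytes that passed quality control (QC), 314 met the rule, which is 3.91% (exact 95% binomial interval 3.5% to 4.36%). QC asked for at least 500 genes and at most 10% mitochondrial UMIs, and 19299 cells of both libraries passed it. Intervals here and below cover counting error in these libraries only.

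Total thymocytes and invariant natural killer T (iNKT) thymocytes came from 2 pigs of mixed breed that had no treatment and were 22 weeks old. Live cells of both pigs were pooled before each library, iNKT cells after enrichment on magnetic beads, and each kind gave 1 library by the droplet 3′ method. Comparisons are therefore within 1 library, or between 1 total and 1 iNKT library where iNKT cells are named; animals cannot be told apart, and no test across replicates was possible. Genes are called higher or lower here when the ratio of their CPM reached 2-fold, where CPM is a gene's summed UMIs divided by all UMIs of the group and scaled by 1000000.

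Gamma-delta T cells carry a T cell receptor of gamma and delta chains in place of alpha and beta chains. They leave the common thymic pathway before the stage with both CD4 and CD8, and in pigs they make up an unusually large part of blood T cells, with a CD2-positive and a CD2-negative subset. In mice SOX13, a transcription factor of the SOX family, marks early cells of the lineage, and MAF, ETV5 and the kinase BLK act in gamma-delta cells that make interleukin 17. RHEX was described as an adaptor protein of the erythropoietin response in red cell precursors.

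The total thymocyte library held 9112 barcodes and the iNKT library 12097, of which 8026 and 11273 passed QC with 28567412 and 53277055 UMIs. Of the total thymocyte barcodes 41 also occurred in the iNKT library (0.450%), among them 2 members. Members had a median of 4486 UMIs and 1726 genes, against 2321 UMIs and 1074 genes in the 7712 other QC cells. Shares of cells with a UMI were therefore taken after each cell had been thinned to 2000 UMIs, which 312 members and 4462 other QC cells allowed. Median mitochondrial UMIs were 5.06% in members and 5.69% in the other QC cells.

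The receptor chains themselves could not check the name. TRDC, the delta constant gene, had 1 UMI in members and 10 UMIs in the other QC cells, and TRGC1, TRGC2, TRDV3, CD163L1 and SOX4 did not match a gene name in the files. SCART1, a scavenger receptor of gamma-delta cells, had 0 UMIs in members and 17 UMIs in the other QC cells. The name thus rests on SOX13 and RHEX, which chose the members, and on the other genes of the gamma-delta list. That list was made with earlier results of these data known, so it is no separate check of the name. Signalling chains of the T cell receptor complex were present. CD3E had a UMI in 95.5% of thinned members and 84.6% of thinned other QC cells. CD3D had a UMI in 67.6% of thinned members and 49.7% of thinned other QC cells. CD3G, with 0 UMIs in members and 7 UMIs in the other QC cells, was too rare to use in either group.

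The 6 genes of the rule chose the members, so their values are a description. Members carried a median of 10 UMIs of SOX13 and RHEX together (range 2 to 38), with a median of 2 UMIs of SOX13 (0 to 9) and 8 UMIs of RHEX (0 to 33). Both genes were detected in 225 members, RHEX alone in 60 and SOX13 alone in 29. In all, 387 QC cells had at least 2 UMIs of the pair; 65 were left out for a CD4 or CD8B UMI and 8 more for PTCRA and DNTT. CPM of RHEX was 1690 in members and 25.2 in the other QC cells, and CPM of SOX13 was 426.6 in members and 7.87 in the other QC cells. Between them, 5 members had a PTCRA or DNTT UMI. Just inside the rule stood 41 members with a sum of 2, with 149.3 CPM of SOX13 and 149.3 CPM of RHEX. Just outside stood 88 cells that met the other conditions with a sum of 1, at 78.9 CPM of SOX13 and 72.1 CPM of RHEX.

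CD8A, the co-receptor chain the rule did not use, was nearly missing too. It had 23 UMIs in members (14 CPM) and 7158 UMIs in the other QC cells (265.9 CPM), a ratio of 0.0526 (0.0334 to 0.0791). Of the 20 members with any CD8A, 19 had exactly 1 UMI and the highest had 4. After thinning, CD8A was seen in 2.24% of members and 28.4% of the other QC cells, many of which had CD8B. Cells that met the other conditions, and so had no CD8B, are a nearer reference. They had CD8A in 15.1% with a sum of SOX13 and RHEX of 0 and in 3.66% with a sum of 1.

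In the iNKT library 652 QC cells (5.78%) met the same rule, which takes no account of the receptor. Those cells met it through RHEX: it had 440.3 CPM and was seen in all 652, while SOX13 was seen in 3. After thinning, members and those iNKT cells differed in ETV5, seen in 37.5% of members and 0.154% of those iNKT cells, and in BLK, seen in 71.5% of members and 3.70% of those iNKT cells. IL9R was seen in 15.4% of members and 0.463% of those iNKT cells, and MAF in 10.6% of members and 3.86% of those iNKT cells. Other genes of the gamma-delta list were common in both: CST7 was seen in 26.9% of members and 36.7% of those iNKT cells, and ID3 in 78.8% of members and 49.5% of those iNKT cells. S100A4 was seen in 3.53% of members and 30.6% of those iNKT cells. ZBTB16, the transcription factor that defines iNKT cells, was seen in none of 312 thinned members, which allows a share with a UMI of up to 0.962%, and in 36.0% of those iNKT cells.

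Against the other QC cells, IL9R, MAF and ETV5 stood among the highest ratios of the members, and RAG1 and CD1E among the lowest. Of 9115 genes with at least 100 UMIs over both groups, 429 (4.71%) were at least 2-fold higher in members and 804 (8.82%) at least 2-fold lower. The median log2 ratio over these genes was -0.03. The comparison was within the contrast that the rule used, so the counts are descriptions.

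IL9R, the receptor for interleukin 9, had the highest ratio of the genes with a symbol outside the 6 genes of the rule. It had 129 UMIs in 80 members (78.5 CPM) and 46 UMIs in 34 of the other QC cells (1.71 CPM), a ratio of 45.9 (32.6 to 65.8). MAF had 93 UMIs in 65 members and 55 UMIs in 42 other QC cells, a ratio of 27.7 (19.6 to 39.4). ETV5 had 454 UMIs in 178 members and 348 UMIs in 158 other QC cells, a ratio of 21.4 (18.5 to 24.6). For none of these did a handful of cells hold the signal: the most in 1 member was 6 UMIs of IL9R, 6 of MAF and 15 of ETV5.

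BLK, a kinase of the Src family, and SYTL3, a synaptotagmin-like protein that binds Rab27 on secretory vesicles, were the most widely detected of the 12 highest genes. BLK had 1053 UMIs in 289 members, at 640.8 CPM in members and 53.5 CPM in the other QC cells, a ratio of 12 (11.1 to 13). SYTL3 had 1050 UMIs in 272 members, at 638.9 CPM in members and 38.3 CPM in the other QC cells, a ratio of 16.7 (15.3 to 18.2). The other genes among the 12 highest were OR51E1 of the olfactory receptor family at 32.8, the zinc finger gene ZNF462 at 20.6 and the sugar transporter SLC45A3 at 19.9. They also included the flavin monooxygenase FMO5 at a ratio of 16.4, the transcription factor ETS2 at 16.2, the adaptor BCAR3 at 14.7 and the histone deacetylase HDAC9 at 13.7. ETS2 and ETV5 both belong to the ETS family of transcription factors.

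Some genes without a symbol also stood high. Of 738 genes without a symbol and with at least 100 UMIs, 51 were at least 2-fold higher in members, beside 4.71% of all genes. As a count this is a description only. The highest pair, picked after their values had been seen, were ENSSSCG00000034914 at 572 UMIs in 116 members and 73 UMIs in 26 other QC cells, and ENSSSCG00000031085 at 470 UMIs in 106 members and 121 UMIs in 34 other QC cells. Their ratios were 128.4 (100.5 to 166.1) and 63.6 (52.0 to 78.4). The sources used here do not annotate them.

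The lowest genes were led by RAG1 and CD1E. RAG1, of the recombinase that assembles receptor genes, had 2 UMIs in members and 8269 UMIs in the other QC cells, 252.4-fold lower (69.8 to 2084). RAG2, its partner, had 6 UMIs in members and 4439 UMIs in the other QC cells, 45.2-fold lower (20.7 to 123.1). RAG1 was at 1.22 CPM in members and 307.1 CPM in the other QC cells. In cells that met the rule but for a sum of SOX13 and RHEX of 0 or 1, it was at 39.0 and 8.58 CPM. CD1E, of the lipid-presenting CD1 family, was 164.6-fold lower, and the bile acid binding protein FABP6 was 74.0-fold lower. COL5A2 was 150.2-fold lower, LSAMP 46.0-fold, FZD6 30.0-fold, PLEKHF1 30.0-fold, TRIM58 27.9-fold and EPCAM 25.7-fold. HBB, the beta globin gene, was 78.4-fold lower; 1 of the other QC cells alone held 9609 of its 17994 UMIs outside the members. In members, 13 cells held the 14 UMIs of HBB.

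**Figure D1:**
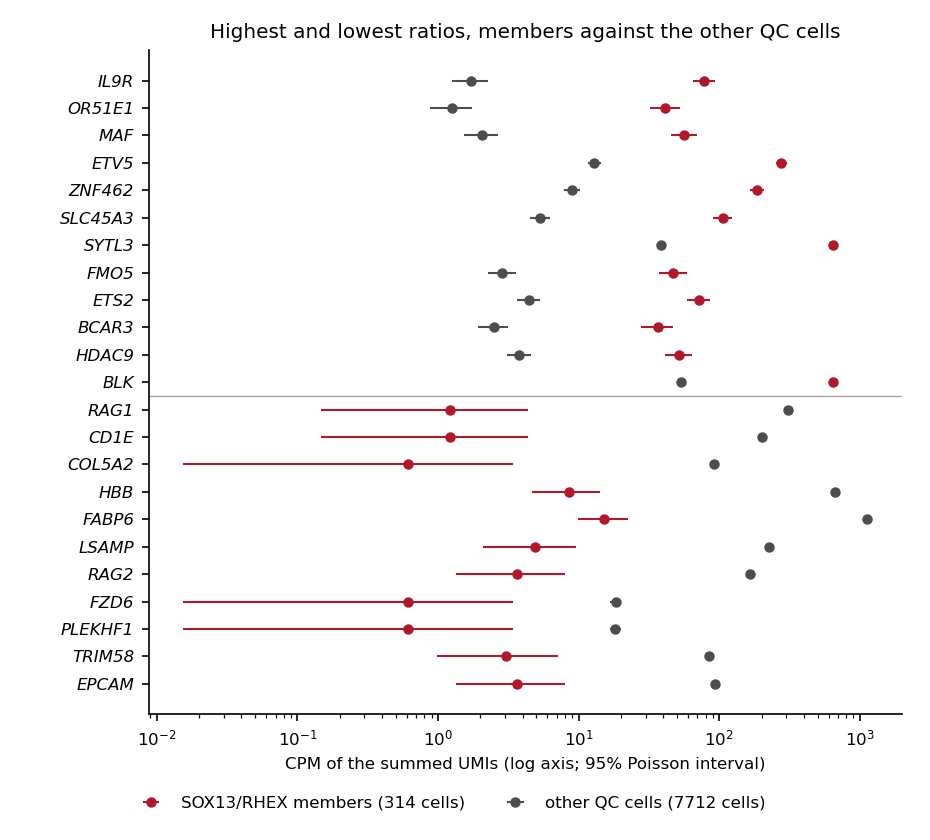
CPM of the 12 genes with the highest ratio and of 11 of the 12 with the lowest, in the 314 members (red) and the 7712 other QC cells (grey), on a log axis with exact 95% Poisson intervals. IL9R stands at 78.5 CPM in members and 1.71 CPM in the other QC cells, and no interval of a pair overlaps.

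Members also differed from thymocytes with a co-receptor and genes of egress. These were 315 QC cells with exactly 1 of CD4 and CD8B detected, at least 2 UMIs of KLF2 and CCR7 together, no SOX13, RHEX, RAG1 or RAG2, and at most 1 UMI of PTCRA and DNTT; they are called mature conventional-like here, and their median was 3375 UMIs. Of 3721 genes with enough UMIs, 307 (8.25%) were at least 2-fold higher in members and 157 (4.22%) at least 2-fold lower. The median log2 ratio over these genes was 0.13.

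LPL, LPAR3 and ELOVL3 led the high side of that comparison. LPL, lipoprotein lipase, had 196 UMIs in 110 members and 0 UMIs in the mature cells, at least 46.3-fold higher with the mature cells set at a floor of 3 counts. ELOVL3, a fatty acid elongase, had 330 UMIs in 148 members and 3 UMIs in 3 mature cells, a ratio of 78.0 (26.5 to 380.2). LPAR3, a lysophosphatidic acid receptor, had 121 UMIs in 86 members and 1 UMI in the mature cells, a ratio of 85.8 (15.1 to 3417). RAB27B, a GTPase of secretory vesicles, was at least 23.9-fold higher, SLAMF7, a receptor of the SLAM family, was 23.6-fold higher and the transcription factor BATF3 was 18.8-fold higher. In the other direction, GZMM, a granule protease of cytotoxic cells, had 3 UMIs in members and 122 UMIs in the mature cells, 57.3-fold lower (19.2 to 281.9). KLK7 was 48.7-fold lower, IL6ST, the shared receptor chain for interleukin 6, was 23.8-fold lower, MYOM1 21.0-fold, CD8A 19.0-fold and MAN1C1 17.6-fold.

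Gene lists for thymocyte biology placed these genes in context; values are for members against the other QC cells unless said otherwise, and list counts cover genes with at least 100 UMIs. Over all such genes 4.71% were higher and 8.82% lower, which is the background of each count below. In the gamma-delta list 5 of 6 genes were at least 2-fold higher beside the 4.71% of all genes, none was lower, and the median log2 ratio was 3.03. ETV5, CST7 and S100A4 of this list were set as markers of the members with earlier results of these data known. Counts of this list are therefore descriptions and cannot check the name. BLK, ETV5 and MAF are given above. CST7, an inhibitor of cysteine proteases in cytotoxic cells, had 151.5 CPM in members and 27.1 CPM in the other QC cells, a ratio of 5.59 (4.82 to 6.46). In cells that met the rule but for a sum of SOX13 and RHEX of 1 or 0, CST7 had 68.6 and 80.4 CPM. ID3, an inhibitor of E proteins that favours the gamma-delta choice in mice, had 1165 CPM in members and 337.8 CPM in the other QC cells, a ratio of 3.45 (3.28 to 3.62). S100A4 encodes a calcium-binding protein linked to T cell motility and did not reach the fold: 41.4 CPM in members and 21.0 CPM in the other QC cells, a ratio of 1.97 (1.51 to 2.53). Against the mature cells, 4 of 4 genes of this list with enough UMIs were at least 2-fold higher.

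The list of gamma-delta lineage factors, transcription factors of T cell lineage choice, is larger than the gamma-delta list and split both ways. Of 25 genes, 5 (20%) were higher, 3 (12%) were lower and the median log2 ratio was -0.02. GATA3, which directs T cell commitment, had 1042 CPM in members and 245.5 CPM in the other QC cells, a ratio of 4.24 (4.02 to 4.48), and was seen in 80.4% of thinned members and 30.5% of thinned other QC cells. BCL6 was 9.42-fold lower (4.55 to 23.5). EGR1, an early response gene of receptor signalling, was at 96.8 CPM in members and 106.9 CPM in the other QC cells. ZBTB16 had 0 UMIs in members and 11 UMIs in the other QC cells, and TBX21, the factor of type 1 responses, had 2 UMIs in members and 143 UMIs in the other QC cells.

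In the alpha-beta and double-positive list 15 of 18 genes were at least 2-fold lower, beside 8.82% of all genes, and none was higher; the median log2 ratio was -2.18. The exceptions were close to the other QC cells: CCR9, a chemokine receptor of thymocytes, at 350.5 CPM in members and 222.7 CPM in the other QC cells, and MYB, a factor of immature proliferating thymocytes, at 304.9 CPM in members and 280.8 CPM in the other QC cells. Mature conventional-like cells had 71.2 CPM of MYB. The rule left out cells with CD4 or CD8B and cells with more than 1 UMI of PTCRA and DNTT. Low values of this list were therefore partly set by the rule, and its counts are descriptions. Nearer references for CD8A and RAG1 are given above.

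The receptor complex and its nearest kinases held 4 higher (15.4%) and 3 lower genes (11.5%) of 26. CD247, the zeta chain of the complex, had 1008 CPM in members and 450.9 CPM in the other QC cells, a ratio of 2.23 (2.12 to 2.35), and the kinase ZAP70, which binds it, had a ratio of 3.03 (2.79 to 3.28). LCK, the kinase that phosphorylates the complex, was at 244.0 CPM in members and 463.7 CPM in the other QC cells, a ratio of 0.526 (0.475 to 0.581). TRAT1, which stabilises the receptor at the surface, was 3.42-fold lower (2.71 to 4.39) and the costimulator CD28 was 3.28-fold lower (1.97 to 5.88). CD2, an adhesion receptor, was at 315.2 CPM in members and 612.1 CPM in the other QC cells, a ratio of 0.515 (0.471 to 0.562). Without cells in S phase or G2/M the median log2 ratio of this list was -0.36, against 0.01 with them.

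In the list of receptor signal response and ERK feedback 3 of 21 genes (14.3%) were higher and 4 (19.0%) lower. ETV5 led it; NR4A3, an orphan nuclear receptor induced by receptor signals, had a ratio of 2.07 (1.36 to 3.06). SPRY1, a feedback inhibitor of the ERK pathway, had 1 UMI in members and 182 UMIs in the other QC cells, and TNFAIP3, an inhibitor of NF-kappaB, was 5.92-fold lower (4.29 to 8.43). Among immediate early and heat shock genes none of 9 was higher and 1 (11.1%) was lower, ATF3 at 2.26-fold (1.13 to 5.28).

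The cytotoxic list split both ways. Of its 13 genes 2 (15.4%) were higher, CST7 and SRGN, a proteoglycan of secretory granules at 1009 CPM in members and 304.3 CPM in the other QC cells, a ratio of 3.32 (3.14 to 3.5). Lower were 5 genes (38.5%), among them GNLY, a lytic granule protein with 0 UMIs in members and 165 UMIs in the other QC cells, at least 3.36-fold lower, and GZMM at 8.20-fold. The summed CPM of the list was 3134 in members and 2005 in the other QC cells. Its median log2 ratio of -0.22 changed sign in 3 other settings, to 0.31 at most 5% mitochondrial UMIs, 0.03 with both SOX13 and RHEX required and 0.46 with the rule applied after thinning. Among cytokines and chemokines 1 of 8 (12.5%) was higher, TNFSF14 at 2.41 (1.44 to 3.82), and 3 (37.5%) were lower, with CCL4 at 0 UMIs in members and 478 UMIs in the other QC cells. IL17A, the cytokine that MAF and ETV5 accompany in mice, had 0 UMIs in members and 0 UMIs in the other QC cells.

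Cytokine receptors other than IL9R, which the list did not hold, were mostly on the low side: 9 of 23 lower (39.1%) and 1 higher (4.35%). IL6R, the receptor for interleukin 6, was the higher one at 4.06 (2.53 to 6.28). KIT, a receptor of progenitors, was 9.98-fold lower (2.74 to 82.8), and TNFRSF9 had 0 UMIs in members and 247 UMIs in the other QC cells, at least 5.03-fold lower. IL7R, whose ligand sustains developing and mature T cells, was at 47.5 CPM in members, 150.2 CPM in the other QC cells and 387.0 CPM in mature conventional-like cells.

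Of the chemokine receptor, adhesion and egress list 6 of 19 genes (31.6%) were higher and 1 (5.26%) lower. GPR183, a receptor for oxysterols that guides lymphocytes, had a ratio of 2.82 (2.39 to 3.31) and the gut-homing integrin chain ITGB7 a ratio of 2.68 (2.28 to 3.13). CXCR3, a homing receptor of type 1 cells, was 9.55-fold lower (2.62 to 79.2). The median log2 ratio of this list was 0.36 with all cells and -0.09 without cells in S phase or G2/M. The S100 and annexin list had 3 of 14 genes higher and 3 lower (21.4% each). VIM, an intermediate filament, had a ratio of 3.45 (3.21 to 3.70) and ANXA1 a ratio of 2.78 (1.98 to 3.83). LGALS1 was 3.16-fold lower (1.44 to 8.69).

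Interferon-stimulated genes had 2 of 19 (10.5%) higher, RSAD2 at 2.70 (1.49 to 4.61) and DHX58 at 2.08 (1.38 to 3.03), and none lower; their median log2 ratio was 0.25 with all cells and -0.45 without cells in S phase or G2/M. Of 10 receptors of the NK and SLAM families 1 was higher, SLAMF7 at 2.07 (1.83 to 2.34), and 4 (40.0%) were lower. Apoptosis genes had 1 lower of 13 (7.69%), BCL2L1, a survival factor of double-positive cells, at 3.24-fold (2.41 to 4.45). None of 14 glycolysis genes passed the fold in either direction. Of 5 class II genes 2 (40.0%) were lower, SLA-DQB1 at 3.67-fold (2.55 to 5.49) and HLA-DRA at 2.49-fold (1.83 to 3.47), and CD74, which chaperones class II, was at 3770 CPM in members and 3594 CPM in the other QC cells.

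Markers of other cell types were mostly lower in members. Summed CPM was 124.7 in members and 273.4 in the other QC cells for B and plasma markers, and 53.5 in members and 89.3 in the other QC cells for myeloid markers. Erythroid markers summed to 48.1 CPM in members and 750.4 CPM in the other QC cells, and markers of stroma and epithelium to 20.7 CPM in members and 103.2 CPM in the other QC cells. NK markers summed to 73.6 CPM in members and 85.1 CPM in the other QC cells, and iNKT markers to 64.5 CPM in members and 183.2 CPM in the other QC cells. MS4A1, PAX5, S100A8, SPI1, KLRD1, TYROBP, AHSP, COL1A1 and KRT8 had 0 UMIs in members. Of those lists 2 genes were higher, CST3, a secreted protease inhibitor, at 3.42 (2.63 to 4.41) and PECAM1, an adhesion molecule, at 2.22 (1.44 to 3.30).

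**Figure D2:**
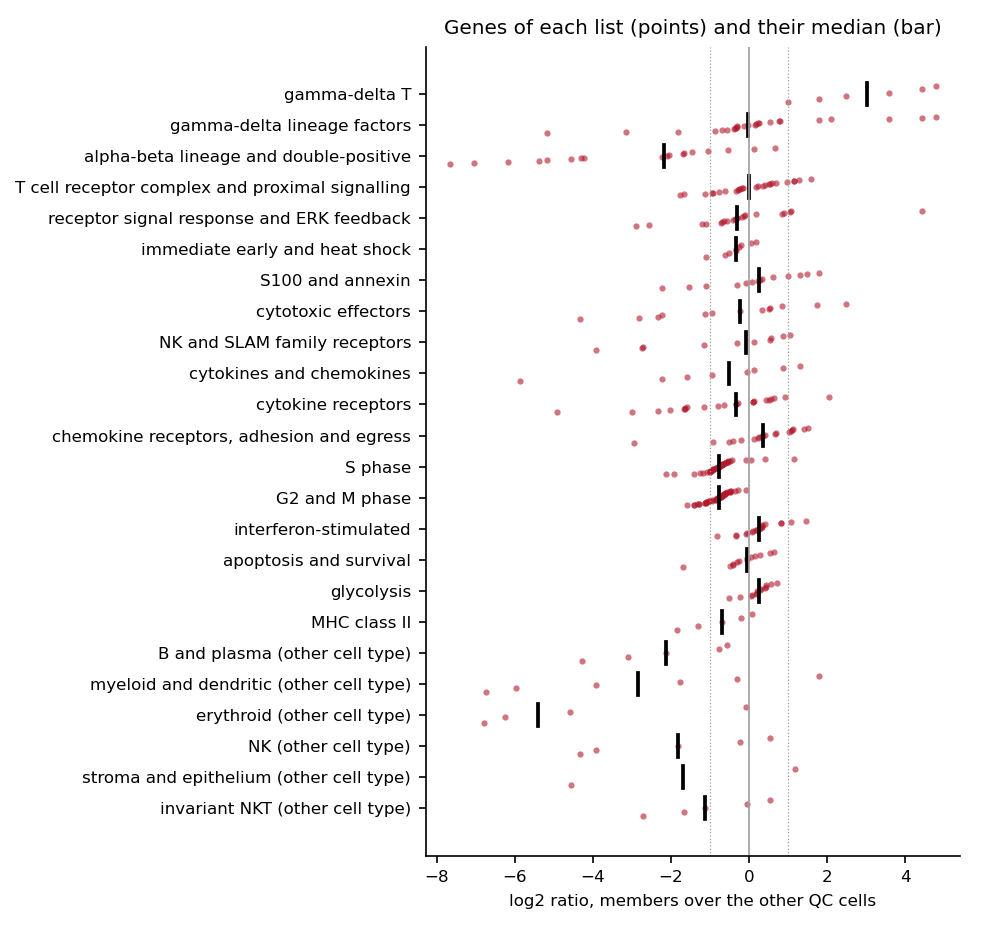
Log2 ratio of each listed gene (points) with at least 100 UMIs, members over the other QC cells, with the list median as a bar and dotted lines at 2-fold either way; the 6 genes of the rule are left out. The gamma-delta list lies to the right with a median of 3.03 and the alpha-beta and double-positive list to the left with a median of -2.18.

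The members were not alike, and ETV5, CST7 and S100A4 marked different fractions of them. After thinning, ETV5 was seen in 117 of 312 members, 37.5% (32.1% to 43.1%), and in 1.26% of the other QC cells. In cells with at least 2 UMIs of RAG1 and RAG2, used as the background of free RNA and thinned alike, ETV5 was seen in 0.557%. CST7 was seen in 84 members, 26.9% (22.1% to 32.2%), in 4.53% of the other QC cells and in 0.948% of the RAG-positive cells. S100A4 was seen in 11 members, 3.53% (1.77% to 6.22%), in 1.90% of the other QC cells and in 0.446% of the RAG-positive cells. Cells that met the rule but for a sum of SOX13 and RHEX of 1 or 0 had S100A4 in 8.54% and 4.71%. In the same cells CST7 was seen in 9.76% and 11.8%, nearer to the members than all other QC cells were. The iNKT library stood at 34.2% for S100A4, 33.3% for CST7 and 0.356% for ETV5.

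Most of these calls rested on few UMIs. Of the 117 ETV5 members 81 had exactly 1 UMI after thinning, and of the 84 CST7 members 58 did. S100A4 was different, with only 4 of 11 at exactly 1 UMI. Before thinning, 16 members had any S100A4, up to 21 UMIs each, and the 5 members with the most held 51 of its 68 UMIs. After thinning, no member had both ETV5 and S100A4, which allows a share with ETV5 of up to 27.3% of the 11. Before thinning, 1 of those 11 had an ETV5 UMI. CST7 was seen in 4 of the 11 members with S100A4 (36.4%) and in 26.6% of members without it, and 29 members had ETV5 and CST7. None of the 3 genes and neither phase of the cell cycle was called in 96 of the 312 members.

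KLF2, CD2, IL9R and MAF were also taken as states, after their values had been seen. KLF2, a factor that turns on egress genes in mature thymocytes, was seen in 17.0% of members (13% to 21.6%), 10.3% of the other QC cells, 43.9% of mature conventional-like cells and 1.84% of RAG-positive cells. Cells that met the rule but for a sum of SOX13 and RHEX of 1 or 0 had KLF2 in 24.4% and 21.6%. CD2 was seen in 34.6% of members (29.3% to 40.2%), in 61.7% of the other QC cells and in 88.8% of mature conventional-like cells. IL9R was seen in 15.4% of members (11.6% to 19.9%) and 0.381% of the other QC cells, and MAF in 10.6% of members (7.39% to 14.5%) and 0.515% of the other QC cells.

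Members that had met the rule through SOX13 alone looked unlike the rest. CD2 was seen in 72.4% of them (21 of 29), against 27.2% of members with both genes and 44.1% of members with RHEX alone. IL9R and MAF were seen in none of the 29 after thinning, which allows a share with a UMI of up to 10.3%; with both genes IL9R was seen in 18.3% and MAF in 12.5%. ETV5 was nearer even, at 34.5% with SOX13 alone, 40.6% with both and 27.1% with RHEX alone. Members with both genes had a median of 4428 UMIs and members with RHEX alone 4185. SOX13-alone members had a median of 6989 UMIs. They were also called to G2/M in 48.3%, against 8.93% of members with both genes. The part of depth in the differences of CD2, IL9R and MAF was not tested beyond the thinning. The part of the cell cycle in them was not tested.

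The edge of the rule showed a like contrast, but partly in the same cells. Of the 41 members with a sum of 2, SOX13 was detected in 23 and RHEX in 23. Many of them were therefore SOX13-alone members, and as many were RHEX-alone members. The contrast is no separate observation, and the part of the low sum in the contrast of SOX13-alone members was not tested. Among members with a sum of 2, CD2 was seen in 67.5% and CST7 in 5.0%, and neither IL9R nor MAF in any of 40 thinned cells, which allows a share with a UMI of up to 7.50%. The cells just outside, with a sum of 1, had CD2 in 80.5%, ETV5 in 20.7%, IL9R in 1.22% and MAF in none of 82. Cells that met the rule but for a sum of 0 had CD2 in 78.5%, ETV5 in 1.32% and IL9R in 0.188%. ETV5 in the cells with a sum of 1 thus stood between the members and the cells with a sum of 0.

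**Figure D3:**
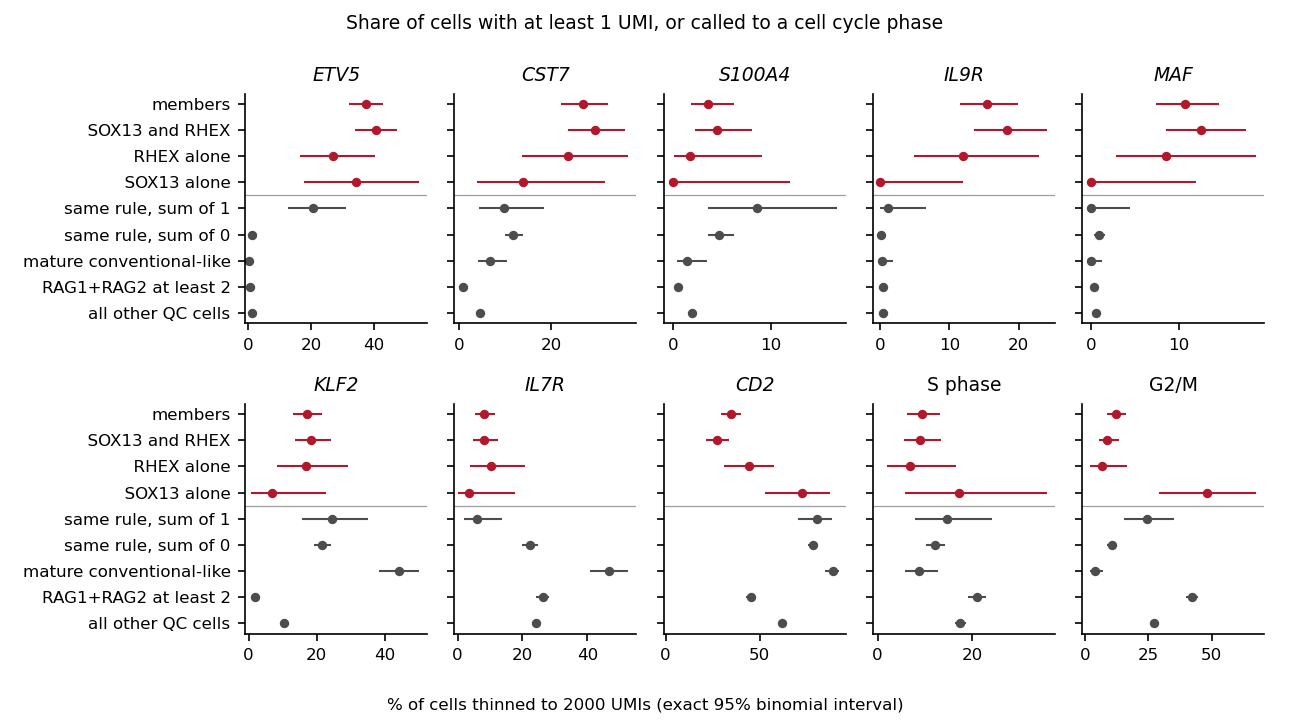
Percent of thinned cells with at least 1 UMI of each gene, or called to a phase, with exact 95% binomial intervals; red rows are all members and the members split by the gene that met the rule, grey rows are other QC cells. ETV5 reaches 37.5% of members and 1.26% of all other QC cells, and SOX13-alone members stand at 48.3% in G2/M and 72.4% for CD2.

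Among cells with at least 2000 UMIs, fewer members than other thymocytes were called to a cycling phase. That depth was met by 312 of 314 members but only 4462 of 7712 other QC cells. Members in G2/M were deep, with a median of 10758 UMIs against 4231 UMIs in members in neither phase. The part of this filter in the contrast was not tested. Summed phase genes, over QC cells of any depth, were lower in members too, but deep cells weigh more in such sums. S phase was called in 29 of 312 members, 9.29% (6.31% to 13.1%), and in 17.5% of the other QC cells; G2/M was called in 38 members, 12.2% (8.76% to 16.3%), and in 27.3% of the other QC cells. A G2/M call needed at least 4 UMIs of its list in a thinned cell. An S phase call needed at least 4 UMIs of its list and fewer than 4 of the G2 and M list, so G2/M went before S phase, and 31 of the 38 G2/M members also had at least 4 S phase UMIs. Counted by the S phase list alone, 60 members (19.2%) and 39.4% of the other QC cells reached 4 UMIs. With the list that had more UMIs deciding instead, S phase held 14.7% of members and 28.9% of the other QC cells, and G2/M 6.73% of members and 16% of the other QC cells. The part of free RNA in these calls was not tested. RAG-positive cells stood at 42.3% in G2/M, and mature conventional-like cells at 4.08% in G2/M and 8.84% in S phase. Cells that met the rule but for a sum of SOX13 and RHEX of 0 stood near the members. They had 10.7% in G2/M and 12.1% in S phase, so these shares were not particular to the members. Summed over cells, 13 of 45 G2 and M genes (28.9%) were at least 2-fold lower in members than in the other QC cells and none was higher, with a median log2 ratio of -0.77. Of 40 S phase genes 8 (20%) were lower and 1 (2.50%) was higher, with a median of -0.78. UHRF1, which keeps DNA methylation through replication, was 3.82-fold lower (3.20 to 4.58), and the higher gene was TIPIN, of the replication fork, at 2.21 (1.81 to 2.67). Against mature conventional-like cells the order was the other way: 10 of 17 S phase genes and 11 of 14 G2 and M genes were at least 2-fold higher in members and none was lower, with median log2 ratios of 1.15 and 1.98.

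The threshold lay among many low values for S phase, where 44 members had 3 UMIs of the list and 18 had 4. For G2/M it was clearer, with 15 members at 3 UMIs, 5 at 4 and a highest value of 52. SOX13-alone members were called to G2/M in 48.3% (14 of 29), members with both genes in 8.93% and members with RHEX alone in 6.78%. Among members with a sum of 2, in part the same cells as the SOX13-alone members, the share was 37.5%. Among the cells just outside the rule it was 24.4%.

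**Figure D4:**
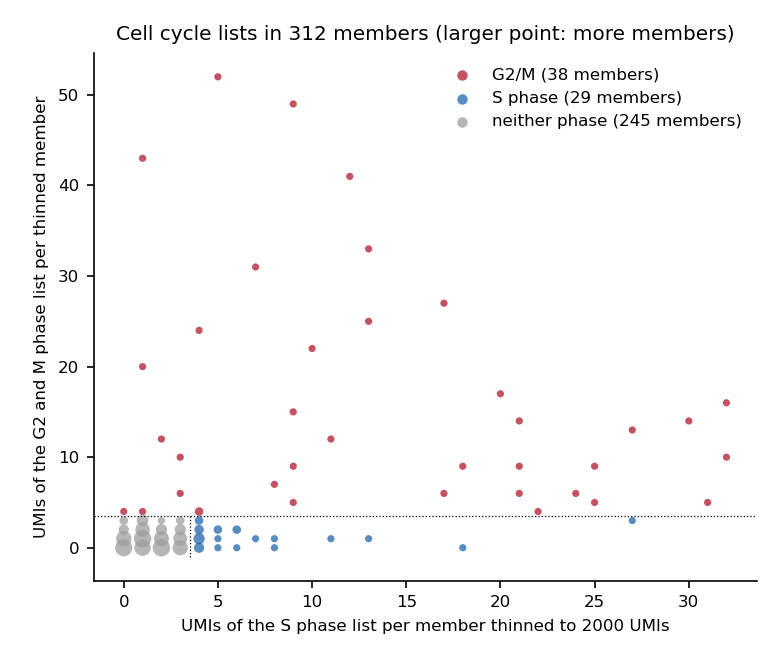
UMIs of the S phase list (horizontal) and of the G2 and M phase list (vertical) in each of 312 members thinned to 2000 UMIs; dotted lines mark the 4 UMIs a call needs, G2/M goes before S phase, and larger points hold more members. The 38 members in G2/M reach 52 UMIs of their list, and 31 of them also have at least 4 UMIs of the S phase list.

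Members in G2/M had a median of 10758 UMIs and members in neither phase 4231 UMIs. Of 3912 genes with at least 50 UMIs, 270 (6.90%) were at least 2-fold higher in G2/M members and 349 (8.92%) lower. Outside the phase lists SGO2, ASPM and CENPU were among the highest. SGO2, which protects centromere cohesion, had 67 UMIs in 20 G2/M members and 1 UMI in members in neither phase, and SMC2, of condensin, had 166 UMIs in G2/M members and 4 UMIs in members in neither phase. CENPU had a ratio of 161.5, NCAPG 80.3, PBK 78.0, SPC24 63.4 and MXD3 38.3, and ASPM was at least 45.6-fold higher. On the low side OR51E1 was 21.2-fold lower, with 1 UMI in G2/M members and 58 UMIs in members in neither phase. MAF was 10.7-fold lower (3.55 to 53.0), AHR, the aryl hydrocarbon receptor, 15.0-fold (4.02 to 125.7), GZMH 10.0-fold, ZNF683 9.86-fold and S100A4 23.7-fold (4.11 to 952.0).

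S phase members were those left after the G2/M call. Of 3408 genes 47 (1.38%) were at least 2-fold higher in S phase members than in members in neither phase and 241 (7.07%) lower. With the list that had more UMIs deciding the phase, 183 genes were higher and 300 lower in 46 S phase members. SIVA1 had a ratio of 3.85 (2.50 to 5.84), HMGB2, a chromatin protein of dividing cells, 3.77 (2.62 to 5.37) and the histone chaperone NASP 3.73 (2.16 to 6.32). CDKN3, EZH2, RPA3 and CASC3 had ratios of 3.56, 3.48, 3.19 and 2.85. MLLT11 had 49 UMIs, but 43 of them came from 1 S phase member. MAF was 13.8-fold lower (2.41 to 551.3), with 1 UMI in S phase members and 88 UMIs in members in neither phase. TSC22D3, a target of glucocorticoids, and the activation marker CD69 also had 1 UMI each in S phase members, as did PIP5K1A, TRPC4AP and BABAM1.

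IL7R, S100A4 and KLF2 were lower in members with ETV5. Against the 195 members without it, the 117 ETV5 members had 52 of 4253 genes (1.22%) at least 2-fold lower and 33 (0.776%) higher; with ETV5 called before thinning 95 were higher. The list of chemokine receptors, adhesion and egress had 3 of 13 genes lower and a median log2 ratio of -0.12. IL7R had 1 UMI in ETV5 members and 77 UMIs in members without ETV5, 46.7-fold lower (8.13 to 1868). S100A4 had 0 UMIs in ETV5 members and 68 UMIs in members without it, at least 13.7-fold lower, and FLNA, an actin cross-linker, was 8.0-fold lower (3.26 to 25.5). The cell cycle regulator CCND2, with 0 UMIs in ETV5 members and 54 UMIs in members without it, was at least 10.9-fold lower, and TNFSF11 was 9.90-fold lower (3.20 to 49.7). CCL5 had 0 UMIs in ETV5 members and 55 UMIs in members without it, but those came from 5 cells. KLF2 was seen in 3.42% of ETV5 members and 25.1% of members without ETV5, and IL7R in 0.855% of ETV5 members and 12.3% of members without it.

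The high side of the ETV5 split was weaker. LPAR3 had a ratio of 2.31 (1.58 to 3.39), ADAP1, a GTPase-activating protein, 2.42 (1.46 to 4.06), KAT5 2.56 (1.41 to 4.73), SEC24B 2.40 (1.35 to 4.33) and the isocitrate dehydrogenase IDH1 2.47 (1.36 to 4.60). INCA1 had the highest ratio, 7.26, but its 66 UMIs lay in 3 ETV5 members, 33 of them in 1 cell. Without members in S phase or G2/M, INCA1 had 0 UMIs in ETV5 members and 14 UMIs in members without it. SGO2 and MXD3, at 2.50 and 2.54 over all members, then had 1 and 3 UMIs in ETV5 members against 0 and 3 UMIs in members without it. G2/M was called in 12.8% of ETV5 members and 11.8% of members without it. In the same non-cycling members IL7R was 33.6-fold lower and KLF2 6.63-fold lower (3.83 to 12.4) with ETV5, LPAR3 had a ratio of 2.34 (1.51 to 3.66), and TRAT1 was 14.3-fold lower (3.75 to 121.8).

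After thinning, G2/M was called in 1 of 84 CST7 members, 1.19%, and in 16.2% of the 228 members without CST7. With CST7 called before thinning, G2/M held 14 of 144 members with CST7, 9.72%, and 14.3% of members without it. Of 4253 genes 209 (4.91%) were at least 2-fold lower in CST7 members and 33 (0.776%) higher, but with CST7 called before thinning 14 were lower and 17 higher. Among the lowest were UBE2C 22.8-fold lower (8.81 to 84.1), PCLAF 16.9-fold (8.13 to 42.3), TK1 14.7-fold, HMMR 21.1-fold, NCAPD3 15.8-fold and INCA1 23.4-fold. Without members in S phase or G2/M the count was 22 lower and 14 higher, and UBE2C had 1 UMI in CST7 members and 5 UMIs in members without CST7. GZMH, a granzyme, stayed higher there at 3.28 (1.85 to 5.90), after 4.69 (2.69 to 8.30) over all members, where its 33 UMIs lay in 7 CST7 members, 13 of them in 1 cell. CCL5, a chemokine of effector T cells, had a ratio of 4.75 over all members, from 4 CST7 members with 32 UMIs and 1 member without CST7 with 23 UMIs. S100A4 had a ratio of 2.70 (1.61 to 4.47), and UROD, CPEB4, AKAP11, HYAL2 and AFF1 had ratios between 2.47 and 2.61.

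The S100A4 members were too few to describe over many genes. Their 11 cells summed to 50559 UMIs, against 1589276 UMIs in 301 members without S100A4. At the 2-fold line 275 of 4253 genes (6.47%) were higher and 1070 (25.2%) lower, and 993 of the lower genes had at most 3 UMIs in S100A4 members. KLF2 was clear even so, with 50 UMIs spread over all 11 cells, a ratio of 10.1 (7.18 to 13.9). FLNA had a ratio of 15.1 (8.74 to 25.3), the glutathione peroxidase GPX1 11 (6.94 to 16.9), IL7R 8.11 (4.37 to 14.2), GIMAP4, of lymphocyte survival, 7.52 (3.51 to 14.7) and the protease inhibitor TIMP1 5.76 (2.92 to 10.5). DAPL1 and ZNF683, a factor of tissue-resident lymphocytes, had ratios of 5.55 and 5.14. ETV5 had 1 UMI in S100A4 members and 452 UMIs in members without S100A4, 14.4-fold lower (2.57 to 569.2). PCNA, FADS3, SPAG8, USP24 and DNAJC5 also had 1 UMI each in S100A4 members. After thinning, CD2 was seen in none of the 11, which allows a share of up to 27.3%. Without thinning, the 9 S100A4 members in neither phase had 4 UMIs of CD2. Their ratio over the 236 members without S100A4 in neither phase was 0.426 (0.115 to 1.10).

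The split by KLF2 held more cells. Of 4253 genes 112 (2.63%) were at least 2-fold higher in the 53 KLF2 members than in the 259 members without it, and 353 (8.30%) lower; with KLF2 called before thinning 200 were lower, and without members in S phase or G2/M 55 were higher. S100A4 had a ratio of 8.13 (4.89 to 13.7), GPX1 6.11 (4.14 to 9.02), the interferon-stimulated gene IFI6 5.64 (4.34 to 7.34), FLNA 5.53 (3.37 to 9.06) and IL7R 5.40 (3.37 to 8.64). TIMP1, HIF1A, the factor of the hypoxia response, and DAPL1 had ratios of 4.93, 4.48 and 4.35. The lowest were UHRF1 at 22.3-fold, MND1, CLSPN, PRIM2, MYEF2 and NCAPD3, each with 1 UMI in KLF2 members. Among members in neither phase, UHRF1 had 0 UMIs with KLF2 and 9 UMIs without it, and MND1 had 0 and 18. There CLSPN had 0 and 1, PRIM2 1 and 9, and NCAPD3 0 and 7. The intervals of these ratios held 1. MYEF2, with 0 and 31 UMIs, stayed lower, with an upper limit of its ratio at 0.633. Without members in S phase or G2/M, KLF2 members still had IL7R at 9.49 (5.30 to 17.5), GPX1 at 6.77 (4.34 to 10.7) and IL9R at 2.75 (1.82 to 4.09). MYB was then 3.64-fold lower (2.21 to 6.46) and ETV5 5.43-fold lower (2.99 to 11) with KLF2. S100A4 was seen in 15.1% of KLF2 members and 1.16% of members without KLF2.

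TRAT1 and CD1B were higher and IL1RL1 and IL9R lower in members with CD2. Of 4253 genes 49 (1.15%) were at least 2-fold higher in the 108 CD2 members than in the 204 members without CD2, and 81 (1.90%) lower. With CD2 called before thinning 202 were higher, and without members in S phase or G2/M 23 were higher and 43 lower. TRAT1 had a ratio of 6.63 (3.59 to 13.2) and CD1B, of the lipid-presenting CD1 family, 3.44 (1.87 to 6.62). NCAPD3, CLSPN, KIF22, PNP, SGO1 and GINS1 followed with ratios between 2.64 and 3.96, and G2/M was called in 16.7% of CD2 members and 9.80% of members without CD2. Without members in S phase or G2/M, TRAT1 had a ratio of 10.1 (4.67 to 25) and CD1B of 8.34 (3.78 to 20.9). Lower in CD2 members were IL1RL1, the receptor for interleukin 33, at 7.23-fold (4.0 to 14.4), IL9R at 4.71-fold (2.78 to 8.52), SAMSN1, a negative regulator of lymphocyte activation, at 4.31-fold (3.08 to 6.17), CCND2 at 5.38-fold, TNFSF11 at 5.16-fold and S100A4 at 22.2-fold. IL1RL1 and IL9R stayed lower among non-cycling members, at 5.49-fold (2.88 to 11.8) and 3.0-fold (1.76 to 5.45). There IL7R was 4.04-fold lower (1.73 to 11.5) with CD2, and KLF2, at 1.81-fold lower (1.24 to 2.71), did not reach the fold. IL7R, S100A4, CCND2 and TNFSF11 thus passed the fold on the low side of both the CD2 and the ETV5 split. ETV5 did not follow CD2: it was seen in 38.0% of CD2 members and 37.3% of members without CD2.

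**Figure D5:**
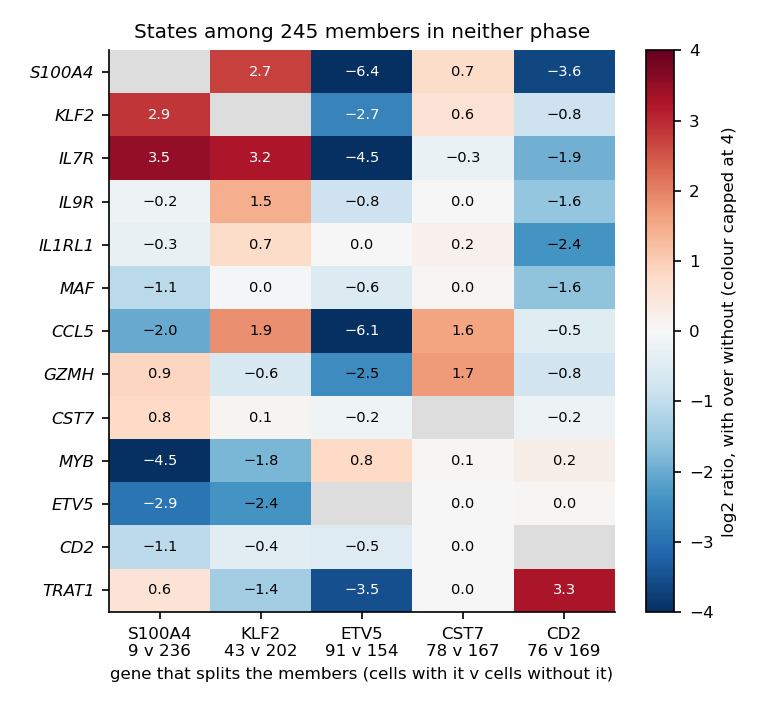
Log2 ratio of 13 genes in each of 5 splits of the 245 members in neither phase, cells with the splitting gene over cells without it, with 0.5 added to each sum; numbers of cells stand below each column and grey squares are the splitting gene itself. IL7R is high with S100A4 and KLF2 and low with ETV5, while TRAT1 is high with CD2.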

How the data were processed

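The deposited matrices hold raw UMI counts per gene and barcode, not normalized, per the file headers, which name Cell Ranger 3.1.0. Cell Ranger 3.1 and Seurat 3.1 stand in the submitters' processing notes. Which genome build and annotation they used is not given in the sources used here. Of 21301 gene IDs, 14846 had a deposited symbol and 687 gained one from a table of gene names; 15513 were usable.

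The members, the comparisons and the 24 gene lists (447 of 502 names measured) were chosen with earlier results of these data known. Per group, UMIs were added up and scaled to CPM. Intervals at 95% are exact: conditional binomial for a ratio, Poisson for a CPM, Clopper-Pearson for a share. UMIs counted in 1 library carry no biological replicate, so no test was run. The log2 ratios add 0.5 to each sum, and a fold against 0 UMIs uses a floor of 3 counts over the group. Cells were thinned to 2000 UMIs with a fixed seed. Scrublet (scanpy 1.11.5) called 0 doublets at an expected rate of 0.08. Its calls were therefore of no use, any doublets were kept, and why none was called was not tested. Leaving out the 642 top-scoring cells, 14 of them members, was an alternative. The sums and intervals were run on simulated counts of 9120 genes for members and other QC cells, where 96.1% of intervals held the true ratio. These counts were independent Poisson draws, as the intervals assume, so the run checks the computation only. Genes whose UMIs gather in few cells were not simulated.

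Genes were named by a rule. With a symbol and at least 100 UMIs, and outside the 6 rule genes, 13 mitochondrial and 65 ribosomal protein genes, these were the 12 highest and 12 lowest ratios against the other QC cells and 6 and 6 further ones against mature cells. The 8 highest and 6 lowest ratios of each state (at least 50 UMIs, without the splitting gene or, for phases, the phase lists) and the 2 highest and 2 lowest of each list were named too, with CD8A, the markers and the gamma-delta list. Of the genes this rule chose, 1 is not reported here. Any other gene was named after its values were seen. The splits by CD2 and KLF2 and some alternatives were also added after the data were seen. Python 3.11.15, numpy 2.4.6, scipy 1.17.1, pandas 2.3.3, matplotlib 3.10.9 and edgeR 4.0.16 (TMM factors only) were used.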

Additional observations from a re-analysis of the deposited data

How the results depend on the processing

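Of 153 recomputed shares and gene counts 100 stayed within their interval or within 1.5 times and 53 moved; none reversed. All 330 recomputed ratios of 30 named genes stayed on their side of 1, and 259 of 275 list medians kept their sign. The median of NK markers reversed, to 0.53 at most 5% mitochondrial UMIs, against -1.81; the cause was not tested here or below. The members' share of QC cells, 3.91% in the main setting, was 5.96% at most 5% mitochondrial UMIs, 3.40% with at least 3 UMIs of SOX13 and RHEX, 2.80% with both genes and 5.57% with the rule applied after thinning. G2/M was called in 5.19% of members at most 5% mitochondrial UMIs, 8.46% with at least 3 UMIs of the pair, 7.14% under the thinned rule, 7.96% at 1000 UMIs, 25.8% without thinning and 17.0% at 3 UMIs of the list; S phase in 30.3% without thinning and 21.2% at 3 UMIs. ETV5 was seen in 18.5% at 1000 UMIs, 56.7% without thinning and 11.5% at 2 UMIs, and CST7 in 14%, 45.9% and 8.33% under those settings. Against the other QC cells, 227 genes were higher and 494 lower without cells in S phase or G2/M, and 724 and 1487 at a minimum of 20 UMIs. Alternatives chosen after seeing the data gave these counts of higher and lower genes at a minimum of 200 UMIs, which leaves fewer genes: 156 and 73 for mature cells, 29 and 176 for S100A4, 0 and 5 for ETV5, 2 and 31 for CST7, 5 and 10 for CD2, 13 and 50 for KLF2, 5 and 14 for S phase, and 61 and 59 for G2/M. Without cycling members 130 genes were higher for S100A4, 14 higher and 22 lower for CST7, 23 and 43 for CD2, and 55 higher for KLF2. With states called on unthinned UMIs 95 were higher for ETV5, 17 higher and 14 lower for CST7, 202 higher for CD2 and 200 lower for KLF2. With the list that had more UMIs deciding the phase, S phase held 14.7% and G2/M 6.73% of members, and 183 genes were higher for S phase. TMM factors gave 162 higher for S100A4 and shifted that comparison by -0.22 (log2), others by at most 0.07. No paired analysis was possible because there is 1 library per group.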

Other observations

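Genes of the amino acid response stood apart in members. This list was made after the data had been seen, so its counts are a description. Of 20 genes with enough UMIs 8 were at least 2-fold higher in members than in the other QC cells, beside 4.71% of all genes, and 2 were lower; the summed level was 1866 CPM in members and 1072 CPM in the other QC cells. The transcription factors CEBPB and ATF5, which act in this response, had ratios of 7.39 (6.04 to 9.0) and 7.20 (6.13 to 8.44). PSAT1 and PHGDH, enzymes of serine synthesis, had ratios of 4.42 (3.54 to 5.47) and 2.94 (2.64 to 3.28). The transfer RNA synthetase genes AARS, SARS and GARS had ratios of 2.97, 2.36 and 2.21, and WARS had 0.825 (0.539 to 1.21). ASNS, asparagine synthetase, went the other way at 2.35-fold lower (1.77 to 3.19), and the cystine transporter SLC7A11 had 1 UMI in members and 186 UMIs in the other QC cells. Against mature conventional-like cells 7 of 11 genes were at least 2-fold higher in members, beside 8.25% of all genes, and none was lower.

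The list was uneven among cells. Thinned members held a median of 3 UMIs of it and a highest value of 27, with 10 at the 90th percentile. The other QC cells held a median of 2 UMIs, 4 at the 90th percentile and a highest value of 18.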
